A study of Mus musculus with 4 samples.

Results

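The 34 genes described here encode the proteins that bring fatty acids into heart muscle and oxidise them in mitochondria, from lipoprotein lipase at the capillary wall to the flavoprotein that passes electrons to the respiratory chain. They were taken by symbol from the 32285 genes of the deposited matrices, and all of the 34 reached 20 unique molecular identifiers (UMIs, each standing for 1 captured RNA molecule) over the libraries, as did 17699 genes of the whole table. The data were 4 droplet libraries of left ventricle from male C57BL/6J wild-type mice, with 1 sham and 1 I/R library at each age. The young animals were aged 3 to 5 months and the aged ones 24 to 26 months, and I/R stands for ischemia of 45 min through surgery on the left anterior descending artery followed by 24 h of reperfusion. Sham samples are marked as healthy in the labels, which also name nuclear RNA as the molecule, whereas the study describes sham operations and single cells. The sources used here do not say how many mice a library stands for, and no library has a replicate. No test between conditions was therefore possible, and every interval printed below is a 95% interval for counting error only, which leaves out differences between mice and preparations.

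Long-chain fatty acids are the main fuel of the adult heart. They are released from circulating triglyceride by lipoprotein lipase or from the myocyte's own lipid droplets, taken across the membrane, bound by small carrier proteins and activated to acyl-CoA, which crosses the inner mitochondrial membrane as an ester of carnitine. Each turn of β-oxidation then shortens the chain by an acetyl group through a dehydrogenation, a hydration, a further dehydrogenation and a thiolytic cleavage. The electrons of the first of these reactions reach ubiquinone through the electron transfer flavoprotein and its dehydrogenase. Malonyl-CoA, the first intermediate of fatty acid synthesis, blocks the entry of acyl groups at carnitine palmitoyltransferase.

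UMIs of a gene were summed over all barcodes of a library and given as CPM, the UMIs of a gene per 1000000 UMIs of that library, so that each library was handled as a bulk sample in which fewer cells of a type and less RNA per cell cannot be told apart. The libraries held 91124 to 102883 barcodes and 25836175 to 66767829 UMIs, with the lowest total in young sham and the highest in aged I/R, and a pair of libraries shared 2366 to 2843 barcode sequences. Marker genes of cardiomyocytes, 18 in all, made up 101330, 88488, 93839 and 109810 CPM for young sham, then young I/R, then aged sham, then aged I/R, and this order of libraries is kept throughout. Without Ttn, the most abundant of them, they summed to 69583, 69873, 75798 and 75373 CPM, so that the higher sum of aged I/R over aged sham rests on Ttn, and 10 of the 18 were lower in aged I/R than in its sham library. Markers of endothelial cells (16 genes) summed to 1539, 1181, 1602.5 and 1645 CPM, and those of fibroblasts (14 genes) to 914, 638, 1044 and 1039.6 CPM. Neutrophil markers stood higher in both I/R libraries for 6 of 6 genes, with sums of 14.2, 97.5, 23.5 and 96.9 CPM. The 10 adipocyte markers summed to 55.4, 58.6, 53.2 and 46.6 CPM, nearly all of it from Thrsp (30.9, 26.9, 22.7 and 22.7 CPM) and Cidea (21.5, 30.1, 27.3 and 22.8 CPM), whereas Adipoq, a defining marker, was at 0.232, 0.0252, 0.0967 and 0.105 CPM and Lep at 0 in both sham libraries. The part of these marker levels in the results below was not tested.

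In young mice the summed level of the 34 genes was higher after I/R than after sham, and in aged mice it was lower. Together they had 14458, 17991, 16457 and 14736 CPM. Ratios between libraries are given as log2 of the ratio of CPM, and that of the sum was 0.32 (0.31 to 0.32) for young I/R over young sham and −0.16 (−0.16 to −0.15) for aged I/R over aged sham. Between the sham libraries, aged over young, it was 0.19 (0.18 to 0.19), and between the I/R libraries −0.29 (−0.29 to −0.28). The 4 signs held when libraries were scaled by the median of gene-wise ratios, by totals without Gm42418, Malat1 and the 13 mitochondrial genes, by the summed cardiomyocyte markers (with or without Ttn) or over barcodes with at least 200 detected genes. Scaling by cardiomyocyte markers moved the aged I/R over sham ratios by −0.23. This shift rests on Ttn, since the marker sum without it had a log2 ratio of −0.0081. The scale without Ttn was applied to the sum of all members only, not to single genes or steps. The genes Lpl and Fabp3 weigh most in these sums. Lpl took 20.9%, 24.1%, 25.2% and 28.6% of the members' UMIs and Fabp3 took 15.7%, 16.8%, 19.1% and 10.2%. Without this pair the sum for aged over young sham came to −0.0029, so that its direction on the CPM scale rests on them. For aged I/R over sham it came to −0.023, so that most of the lower aged sum on that scale rests on the pair as well. Sums without the pair were taken on the CPM scale only. Scaling by gene-wise ratios shifts ratios for aged over young sham by 0.15. Cardiomyocyte markers shift those for aged I/R over sham by −0.23. Neither statement on the pair therefore extends to these scales. Of the pair, Fabp3 had 3151 CPM in aged sham and 1503 CPM in aged I/R, while Lpl was not lower in aged I/R on the CPM scale. The aged ratio of Lpl came to −0.065 with scaling by gene-wise ratios and −0.20 by cardiomyocyte markers. The sums for young I/R over sham and aged over young I/R kept their sign at 0.21 and −0.24.

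**Figure D1:**
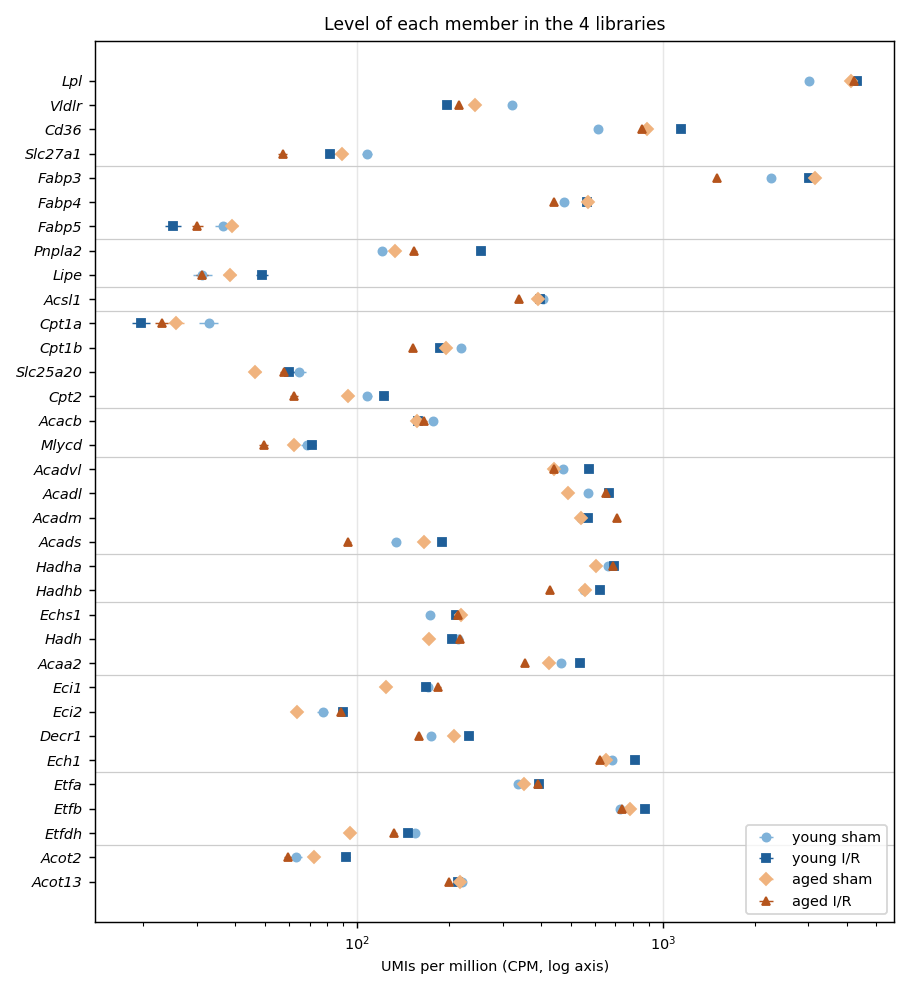
Level of each of the 34 genes in the 4 libraries, as CPM on a log axis, with genes grouped by step from uptake at the top to thioesterases at the bottom and horizontal bars for 95% counting intervals, most of them narrower than the symbols. Lpl and Fabp3 hold the most UMIs and Cpt1a and Fabp5 are near the lower end. On the CPM scale aged I/R lies lowest for 16 of the genes while young I/R lies highest for 18. The share of all genes with these orders was not counted, so the numbers have no background beside them.

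At the capillary wall and the myocyte membrane, Lpl and Cd36 were higher after I/R in young mice, and both had ratios closer to 0 in aged mice. Lpl (GRCm38 chromosome 8, 68880491 to 68907448), the lipase that frees fatty acids from circulating lipoproteins, had 3017, 4338, 4146 and 4218 CPM. Young sham stood lowest and the other libraries lay within a narrow range above it. Comparing I/R with sham, the log2 ratio was 0.52 (0.51 to 0.54) in young mice and 0.025 (0.016 to 0.034) in aged mice, the latter falling below 0 with 3 of the 4 alternative scalings. Cd36 (chromosome 5, 17781690 to 17888801), the main fatty acid translocase of heart muscle and capillary endothelium, had 615, 1151, 891 and 858 CPM, with a ratio of 0.90 (0.88 to 0.93) in young and −0.054 (−0.073 to −0.035) in aged mice. Aged sham already held more of it than young sham, by 0.53 (0.51 to 0.56), and aged I/R held less than young I/R, with a ratio of −0.42 (−0.44 to −0.40).

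Vldlr and Slc27a1, by contrast, were highest in young sham. Vldlr, the receptor that delivers triglyceride-rich particles to lipase, was counted at 321, 197, 243 and 216 CPM, and its I/R over sham ratio was −0.70 (−0.75 to −0.66) in young and −0.17 (−0.21 to −0.13) in aged mice. The young ratio came to −0.19 with scaling by gene-wise ratios. The UMI ratio of Cd36 to Vldlr, which no scaling of libraries can change, was 1.92 (1.87 to 1.97), 5.83 (5.70 to 5.98), 3.67 (3.59 to 3.75) and 3.97 (3.90 to 4.05). It was thus highest in young I/R and lowest in young sham. Such UMI ratios, here and below, are not adjusted for the length of the genes, with which ratios between libraries moved as described below. Slc27a1, an acyl-CoA synthetase of the membrane that takes part in uptake, was counted at 108, 81.9, 89.4 and 57.2 CPM. Aged I/R held the least of it, with a ratio over aged sham of −0.65 (−0.71 to −0.58), whereas the young ratio of −0.40 turned to 0.11 with scaling by gene-wise ratios. The 4 uptake genes together had 4061, 5767.5, 5369 and 5349.9 CPM, of which Lpl made up 74.3%, 75.2%, 77.2% and 78.8%.

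The cytosolic carriers gave the widest contrast between the ages. Fabp3 (chromosome 4, 130308595 to 130315463), the heart-type fatty acid binding protein, had 2263, 3016, 3151 and 1503 CPM. Aged I/R stood well below the other libraries, and aged sham and young I/R were the highest. The I/R over sham ratio of Fabp3 was 0.41 (0.40 to 0.43) in young and −1.07 (−1.08 to −1.06) in aged mice, where the level was 2.10-fold lower. The aged value ranged from −1.30 to −1.03 over the scalings. Lpl and Fabp3 were counted in a nearly fixed ratio in young sham, young I/R and aged sham, at 1.33, 1.44 and 1.32, and in aged I/R the ratio was 2.81 (2.79 to 2.83). The counted genes Gm10570 and Zcchc17 overlap Fabp3 on the opposite strand, and their UMIs together came to 1.25% of its own.

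Fabp4, a carrier of capillary endothelium, macrophages and adipocytes, showed the same order of libraries as Fabp3 at 475, 566, 572 and 443 CPM, over a smaller range. The I/R over sham ratio was 0.25 (0.22 to 0.28) in young and −0.37 (−0.39 to −0.35) in aged mice. The summed endothelial markers had ratios of −0.38 and 0.038 in the same comparisons, and the part of endothelial RNA in the Fabp4 values was not tested. Fabp5, a carrier of epidermis, endothelium and macrophages, was sparse at 36.5, 25.004, 39.0 and 30.1 CPM. It was lower after I/R at both ages, with ratios of −0.55 in young and −0.38 in aged mice, although the young ratio came to −0.036 with scaling by gene-wise ratios. Within aged I/R, Fabp4 made up 22.4% of the carriers' UMIs, against 17.1%, 15.7% and 15.2% in young sham, young I/R and aged sham.

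For young mice, transcripts of both lipases of the lipid droplet were higher after I/R. Pnpla2, which encodes adipose triglyceride lipase, the enzyme of the first step of triglyceride breakdown, was counted at 121, 255, 133 and 154 CPM. Young I/R stood 2.10-fold above young sham, a log2 ratio of 1.07 (1.02 to 1.13), and this was the highest of the 34 in that comparison. In aged mice the ratio was 0.21 (0.17 to 0.26), and it turned to −0.013 when libraries were scaled by cardiomyocyte markers. This turn rests on Ttn, as described above. Lipe, hormone-sensitive lipase, which cleaves the diglyceride that results, was counted at 31.2, 48.8, 38.3 and 31.1 CPM, with 0.64 (0.53 to 0.76) in young and −0.30 (−0.39 to −0.20) in aged mice. The noncoding gene 4732471J01Rik overlaps Lipe on the other strand with UMIs that came to 2.75% of its own, the largest such share among the 7 members with a counted antisense gene, and the use of strand in counting is not stated. Aged I/R lay below young I/R for both lipases, with ratios of −0.73 and −0.65.

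The 250 bases before the start of Pnpla2 in RefSeq, at chr7:141454938-141455187 of GRCm38.p6 on the plus strand, are shown because this gene had the highest young ratio, with GC boxes (GGGCGG on either strand) in capitals.
Pnpla2 upstream: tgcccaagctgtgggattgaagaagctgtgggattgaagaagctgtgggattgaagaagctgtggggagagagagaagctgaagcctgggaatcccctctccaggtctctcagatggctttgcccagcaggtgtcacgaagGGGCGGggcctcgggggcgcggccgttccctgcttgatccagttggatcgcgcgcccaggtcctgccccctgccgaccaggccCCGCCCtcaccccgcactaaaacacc
The stretch holds 2 GC boxes and no CCAAT box.

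Activation by Acsl1, the long-chain acyl-CoA synthetase of heart muscle, differed little between libraries on the CPM scale. It was counted at 407, 398, 390.4 and 339.7 CPM, and the young I/R over sham ratio of −0.033 (−0.069 to 0.0023) had an interval that held 0. Over the scalings it ranged from −0.11 to 0.48. In aged mice the ratio was −0.20 (−0.23 to −0.17), and aged I/R had the lowest level of the 4 libraries.

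The carnitine shuttle was lowest in aged I/R as a sum, at 426, 389, 362 and 295 CPM, and its members did not move together. Cpt1b, the muscle form of carnitine palmitoyltransferase 1 on the outer membrane, made up 51.6%, 48.0%, 54.2% and 51.6% of the shuttle's UMIs and was counted at 219.7, 187, 196 and 152 CPM. It was lower in I/R than in sham at both ages, with −0.23 (−0.28 to −0.18) in young and −0.37 (−0.41 to −0.32) in aged mice, but the young ratio turned to 0.28 with scaling by gene-wise ratios. Cpt1a, the liver form, which the heart also expresses, had the fewest UMIs of all members, 4217 over the 4 libraries, and levels of 32.7, 19.7, 25.6 and 23.0 CPM. Young I/R held 1.66-fold less of it than young sham, −0.73 (−0.88 to −0.59), a ratio that came to −0.22 with scaling by gene-wise ratios. The UMI ratio of Cpt1b to Cpt1a was accordingly highest in young I/R, at 6.72, 9.51, 7.66 and 6.62. The genes span 9.46 and 63.4 kb. With the median of genes of like span subtracted, as described below, their young I/R over sham ratios were −0.28 and −0.32. Most of the gap between them was thus not kept.

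On the inner membrane the carrier and the transferase went apart in aged mice. Slc25a20, the carnitine-acylcarnitine translocase, had 64.9, 60.1, 46.4 and 57.6 CPM, with I/R over sham ratios of −0.11 (−0.20 to −0.019) in young and 0.31 (0.23 to 0.39) in aged mice, the young one turning above 0 with 3 of the 4 alternative scalings, up to 0.40. Cpt2, which returns the acyl group to coenzyme A in the matrix, had 108, 122, 93.7 and 62.1 CPM, with 0.18 (0.11 to 0.25) in young and −0.59 (−0.66 to −0.53) in aged mice. Aged I/R thus held 1.97-fold less Cpt2 than young I/R. The UMI ratio of Slc25a20 to Cpt2 was 0.599 (0.564 to 0.637), 0.491 (0.467 to 0.515), 0.495 (0.469 to 0.523) and 0.928 (0.888 to 0.970), so the value in aged I/R lay above the intervals of the other libraries. As a sum, the shuttle had a ratio of −0.13 (−0.16 to −0.094) in young mice, which ranged from −0.20 to 0.38 over the scalings and so has no settled direction, and −0.29 (−0.33 to −0.26) in aged mice, which stayed below 0 under all of them.

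As a sum, the genes of malonyl-CoA control varied least of all steps, at 246, 230, 220.04 and 215 CPM. Acacb, the acetyl-CoA carboxylase that makes malonyl-CoA at the mitochondrial surface, was counted at 177, 159, 158 and 166 CPM. Mlycd, malonyl-CoA decarboxylase, which removes it, was counted at 68.9, 71.0, 62.3 and 49.5 CPM and was lowest in aged I/R. The I/R over sham ratios were −0.16 and 0.045 in young mice and 0.072 and −0.33 in aged mice. For Acacb both signs turn with scaling by gene-wise ratios, to 0.35 and −0.018, and the young value of Mlycd came to −0.0019 over barcodes with at least 200 genes.

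The acyl-CoA dehydrogenases, each acting on a range of chain lengths, were higher after I/R in young mice, all 4 of them, and were split in aged mice. Acadvl, the very long-chain enzyme of the inner membrane, was counted at 473, 576, 442 and 442 CPM, with I/R over sham ratios of 0.28 (0.25 to 0.32) in young and −0.0013 (−0.028 to 0.025) in aged mice. Acadl, the long-chain enzyme, was counted at 570.4, 667, 489 and 654 CPM and gave 0.22 (0.20 to 0.25) and 0.42 (0.40 to 0.45). Acadm, the medium-chain enzyme, was counted at 541, 571, 539 and 710.1 CPM and gave 0.078 (0.047 to 0.11) and 0.40 (0.37 to 0.42). On the CPM scale it was the only dehydrogenase whose highest level was in aged I/R, and with scaling by gene-wise ratios young I/R was higher.

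Acads (chromosome 5, 115110299 to 115119346), the short-chain dehydrogenase, went the other way in aged mice. It was counted at 134, 189, 166 and 93.5 CPM, so that aged I/R held 2.02-fold less than young I/R. The I/R over sham ratio was 0.50 (0.44 to 0.56) in young and −0.82 (−0.87 to −0.77) in aged mice. Counted against Acadm in the same library, Acadm had 4.04 (3.89 to 4.19), 3.02 (2.94 to 3.10), 3.26 (3.17 to 3.35) and 7.59 (7.40 to 7.80) UMIs for each UMI of Acads. The same ratio for Acadl was 4.26, 3.53, 2.95 and 6.998, again highest in aged I/R. The dehydrogenases together had 1718, 2003, 1636 and 1899.7 CPM, with 0.22 (0.20 to 0.24) in young and 0.22 (0.20 to 0.23) in aged mice. The aged sum turned to −0.011 when scaled by cardiomyocyte markers, a shift that rests on Ttn, and stayed above 0 under the other scalings. The young sum ranged from 0.37 to 0.73 over the alternative scalings and was above the aged one under each.

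The trifunctional protein of the inner membrane carries out the hydration, the second dehydrogenation and the thiolysis of long chains with α subunits from Hadha and β subunits from Hadhb. In GENCODE the genes start on opposite strands of chromosome 5 with 85 bases between them. This stretch, chr5:30155163-30155247 of GRCm38.p6 with letters from the RefSeq windows, is written along the plus strand. It is shown because the subunits share it, with GC boxes in capitals.
Hadha-Hadhb: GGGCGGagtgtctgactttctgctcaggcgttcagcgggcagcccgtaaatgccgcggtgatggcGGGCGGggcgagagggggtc
Hadha, read from the minus strand, had 662, 694, 606 and 686 CPM, and Hadhb, read from the plus strand, had 551, 624, 559 and 429 CPM. Levels of Hadha lay within 1.15-fold of each other, while Hadhb was lowest in aged I/R and 1.46-fold higher in young I/R. The I/R over sham ratio was 0.068 (0.04 to 0.096) for Hadha and 0.18 (0.15 to 0.21) for Hadhb in young mice, and 0.18 (0.16 to 0.20) and −0.38 (−0.41 to −0.36) in aged mice. The aged ratio of Hadha turned to −0.048 with cardiomyocyte markers as the scale, a shift that rests on Ttn. The UMI ratio of Hadha to Hadhb was 1.20 (1.17 to 1.23), 1.11 (1.09 to 1.13), 1.08 (1.06 to 1.10) and 1.60 (1.58 to 1.62). In 3 of the libraries it lay between 1.08 and 1.20, and in aged I/R the interval was clear of all of them.

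**Figure D2:**
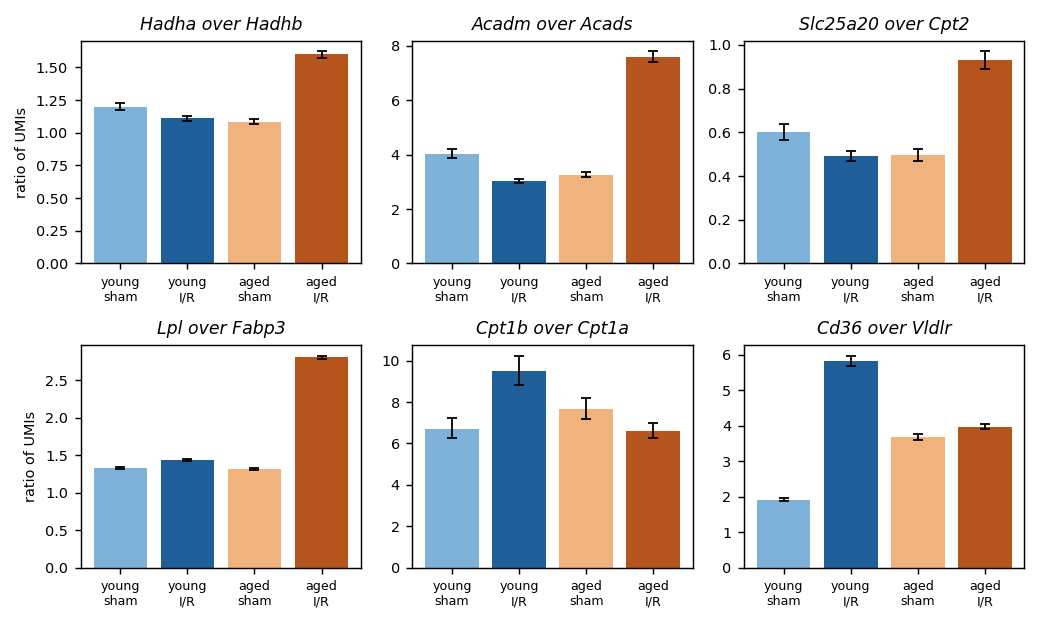
UMI ratios of 6 pairs of genes within each library, with 95% counting intervals as error bars and axes that start at 0. For Hadha over Hadhb, Acadm over Acads, Slc25a20 over Cpt2 and Lpl over Fabp3 the bar of aged I/R stands above the others, while Cpt1b over Cpt1a and Cd36 over Vldlr are highest in young I/R. These ratios do not depend on the scaling of libraries, but they are not adjusted for the shift with gene span described below.

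For shorter chains the same reactions are carried out by separate matrix enzymes. Echs1, the short-chain enoyl-CoA hydratase, was counted at 173, 211, 218 and 214 CPM and was lowest in young sham. Its I/R over sham ratio was 0.29 (0.24 to 0.34) in young mice and −0.027 (−0.065 to 0.011) in aged mice, the latter within counting error of 0. Hadh, the short-chain hydroxyacyl-CoA dehydrogenase, was counted at 214, 204, 172 and 218 CPM, with −0.069 in young mice, which turned to 0.44 with scaling by gene-wise ratios, and 0.34 (0.30 to 0.38) in aged mice. Acaa2, the mitochondrial thiolase of the last reaction, was counted at 466, 535, 424 and 354 CPM, with 0.20 (0.17 to 0.23) and −0.26 (−0.29 to −0.23). Acaa2 took 54.6%, 56.3%, 52.1% and 45.0% of the UMIs of these enzymes, least in aged I/R.

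Unsaturated fatty acids need auxiliary enzymes that move or remove double bonds. Eci1, an enoyl-CoA isomerase of the matrix, was counted at 171, 168, 124 and 184 CPM and had the highest aged I/R ratio of all members, 0.57 (0.52 to 0.62), against −0.026 (−0.081 to 0.029) in young mice, the latter above 0 on the other scalings. Eci2, an isomerase of mitochondria and peroxisomes, followed it in aged mice with 0.49 (0.42 to 0.55), and its levels were 77.2, 90.0, 63.4 and 88.9 CPM. Aged sham was the lowest library for both isomerases. Decr1, the dienoyl-CoA reductase, was counted at 175, 232, 208 and 159 CPM, with 0.40 (0.35 to 0.45) in young and −0.38 (−0.43 to −0.34) in aged mice. Ech1, a dienoyl-CoA isomerase, was counted at 681, 815, 653 and 624 CPM and took 61.7%, 62.5%, 62.3% and 59.0% of the UMIs of these enzymes, with ratios of 0.26 (0.23 to 0.28) and −0.068 (−0.09 to −0.045). The isomerases Eci1 and Eci2 and the reductase Decr1 thus lay on opposite sides of 0 in aged mice.

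As a sum, the genes of electron transfer also stayed within a narrow range, at 1217, 1415, 1228 and 1259.8 CPM, and within them the dehydrogenase stood apart from the flavoprotein subunits. Etfa, the α subunit of the electron transfer flavoprotein, was counted at 337, 394, 353 and 391 CPM, and Etfb, the β subunit, at 725, 874, 779.95 and 736 CPM. The I/R over sham ratios were 0.23 (0.19 to 0.26) and 0.27 (0.24 to 0.29) in young mice and 0.15 (0.12 to 0.18) and −0.083 (−0.10 to −0.063) in aged mice. With cardiomyocyte markers as the scale the aged ratio of Etfa turned to −0.079, a shift that rests on Ttn as well. Etfdh, which hands the electrons to ubiquinone, was counted at 155, 147, 95.1 and 132 CPM. Aged sham was 1.63-fold below young sham, −0.70 (−0.77 to −0.64), the lowest ratio of the 34 in that comparison. The UMI ratio of Etfdh to Etfb was 0.214 (0.207 to 0.221), 0.168 (0.163 to 0.173), 0.122 (0.118 to 0.126) and 0.180 (0.175 to 0.184), lowest in aged sham and highest in young sham.

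Of the thioesterases of the matrix, which hydrolyse acyl-CoA to free fatty acid, Acot2 was counted at 63.0, 92.2, 72.6 and 59.7 CPM and Acot13 at 220.4, 213, 218 and 200.2 CPM. Acot2 had I/R over sham ratios of 0.55 (0.47 to 0.63) in young and −0.28 (−0.35 to −0.21) in aged mice. Acot13 lay within 1.10-fold in all libraries, the narrowest range of the members.

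Set side by side as sums, the droplet lipases, uptake and the carriers had higher young ratios than the steps in the mitochondrion, and activation was near 0 on the CPM scale. In young mice the sum of the droplet lipases had an I/R over sham ratio of 0.995 (0.94 to 1.05), uptake 0.51 (0.50 to 0.52) and the carriers 0.38 (0.37 to 0.39). The uptake sum rests on Lpl and Cd36, since Vldlr and Slc27a1 were lower, and the carrier sum rests on Fabp3. With the median of genes of like span subtracted, as described below, Fabp3, Fabp4 and Fabp5 had 0.37, 0.057 and −0.74. Acadvl, Acadl, Acadm and Acads then had 0.24, 0.49, 0.34 and 0.45, and Hadha and Hadhb 0.33 and 0.44. The lead of the carriers over these steps was thus not kept. The dehydrogenases followed at 0.22, the trifunctional protein at 0.12, electron transfer at 0.22 and the shuttle at −0.13. In aged mice the carriers had −0.93 (−0.94 to −0.92) and the shuttle −0.29, uptake stood at −0.0052, the trifunctional protein at −0.064, electron transfer at 0.037 and the dehydrogenases at 0.22. The aged sums of 5 steps change sign with the scaling. That of uptake ranged from −0.23 to 0.013, of electron transfer from −0.19 to 0.05, of the dehydrogenases from −0.011 to 0.23, of the droplet lipases from −0.11 to 0.13 and of the enzymes for unsaturated chains from −0.22 to 0.032. For the dehydrogenases and the droplet lipases the sign turned with cardiomyocyte markers only, a shift that rests on Ttn. As a share of the members' UMIs, the carriers went from 22.9% in aged sham to 13.4% in aged I/R, while the dehydrogenases went from 9.94% to 12.9%. These shares belong to a common total, so the lower share of the carriers raises those of other steps. Uptake, with a ratio of −0.0052, went from 32.6% to 36.3%.

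**Figure D3:**
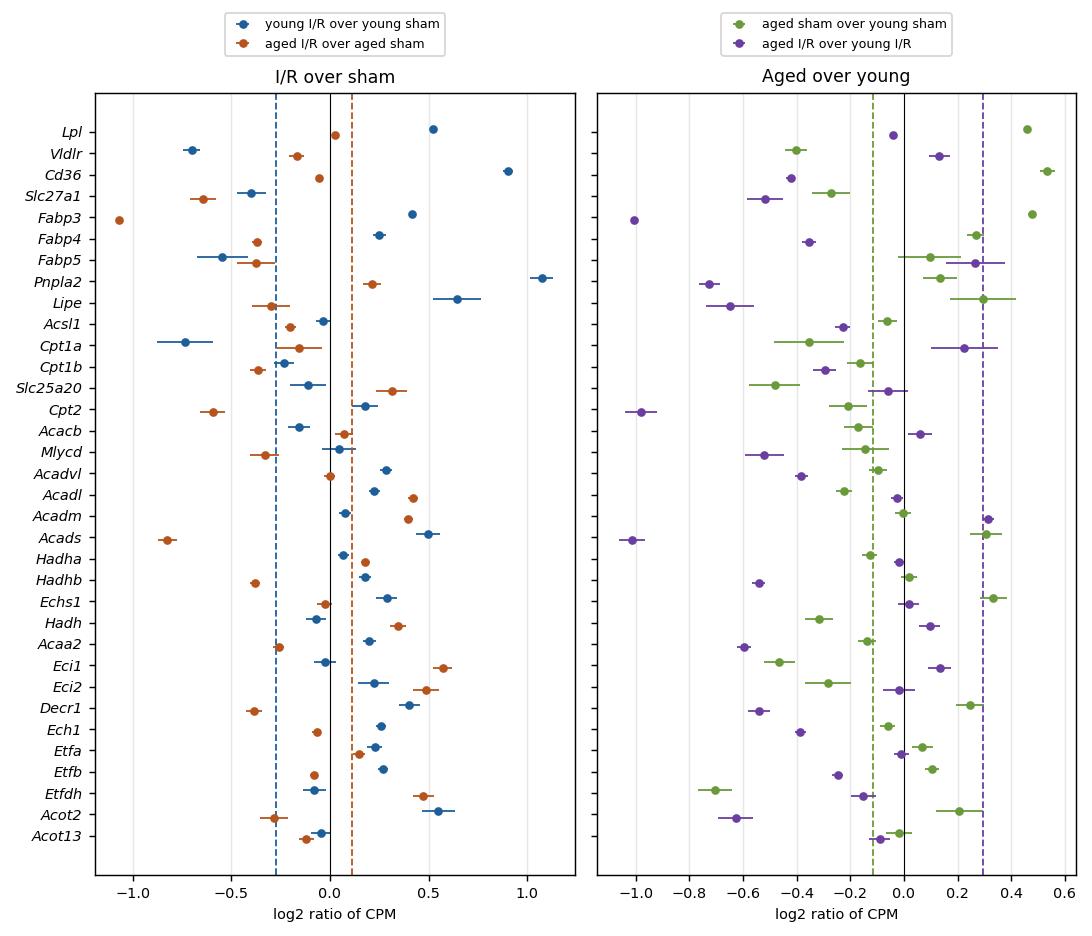
Log2 ratios of CPM for each gene with 95% counting intervals, I/R over sham on the left (young in blue, aged in orange) and aged over young on the right (sham in green, I/R in purple). Dashed lines mark the median of all genes with at least 4000 UMIs in the comparison of the same colour, and most young I/R ratios lie to the right of the line at −0.27 and all but 1 of the aged over young I/R ratios to the left of the line at 0.29.

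A ratio of at least 1.5 in either direction was used to count genes, with no test behind it. In young I/R over young sham 3 of 34 members were higher (Pnpla2, Cd36 and Lipe) and 2 were lower (Cpt1a and Vldlr), where 8.03% of all 17693 genes were higher and 47.5% lower. In aged I/R over aged sham none was higher and 4 were lower (Fabp3, Acads, Slc27a1 and Cpt2), against 17.6% and 10.6% of all genes. Between the sham libraries none was higher in aged mice and Etfdh alone was lower, against 11.3% and 21.4%. Between the I/R libraries none was higher in aged mice and 7 were lower (Acads, Fabp3, Cpt2, Pnpla2, Lipe, Acot2 and Acaa2), against 43.4% and 5.07%. Among the 5069 genes with at least 4000 UMIs, a limit just below the member with the fewest, the shares were 5.39% higher and 32.0% lower in young I/R over sham, 13.9% and 5.92% in aged, 4.32% and 13.8% for aged over young sham, and 29.3% and 3.87% for aged over young I/R.

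These counts moved with the scaling, and so did those over all genes. With scaling by gene-wise ratios, by totals without Gm42418, Malat1 and mitochondrial genes, over barcodes with at least 200 genes and by cardiomyocyte markers, in that order, 20, 6, 6 and 8 members were at least 1.5-fold higher in young I/R over sham, beside 21.5%, 10.2%, 9.89% and 11.0% of all genes. Lower in the same comparison were 0, 1, 3 and 0 members, beside 25.8%, 40.2%, 47.9% and 38.0% of genes. In aged I/R over sham no member was higher under any of them, beside 14.4%, 14.4%, 16.2% and 10.1%, and 4, 4, 4 and 9 were lower, beside 13.6%, 13.6%, 10.5% and 19.5%. Between the sham libraries 3, 1, 1 and 2 were higher in aged mice, beside 15.6%, 13.3%, 13.8% and 14.3%, and 0, 1, 2 and 1 lower, beside 15.1%, 18.3%, 25.8% and 16.3%. Between the I/R libraries no member was higher in aged mice, beside 21.4%, 34.3%, 41.7% and 26.8%, and 19, 11, 7 and 16 were lower, beside 16.3%, 7.81%, 5.13% and 11.6%. The excess of lower over higher members for aged over young I/R was thus present under each scaling, while its size ran from 7 to 19 genes.

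The middle of the members lay apart from that of all genes, and less so from that of genes of like abundance. Their median log2 ratio was 0.19 in young I/R over sham against −0.53 over all genes, with 31 of 34 members above the latter. In aged I/R over sham it was −0.10 against 0.086, with 10 of 34 above. For aged over young sham the values were −0.061 and −0.14 with 20 of 34 above, and for aged over young I/R −0.24 and 0.48 with 0 of 34 above. All members had over 4000 UMIs, and the median over genes moved with abundance. For the 151 genes with at least 100000 UMIs it was 0.20 in young I/R over sham and −0.26 for aged over young I/R. Set against the median of genes in the same class of UMIs, 24 of 34 members were above it in young I/R over sham, 14 in aged I/R over sham, 12 for aged over young sham and 7 for aged over young I/R, with median gaps of 0.16, −0.12, −0.069 and −0.32. Scaling by gene-wise ratios added 0.51, −0.090, 0.15 and −0.45 to every ratio in these comparisons, which brought the medians of all genes close to 0. Under it 31 of 34 members were above 0 in young I/R over sham, 10 in aged I/R over sham, 22 in aged over young sham and 0 in aged over young I/R.

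Which members stood at the ends of the ranking differed between comparisons. After the 3 members already named, Acot2 and Lpl came next in young I/R over sham, and Fabp5 was among the 3 lowest at −0.55 (−0.68 to −0.42). In aged I/R over sham Eci1, Eci2 and Etfdh led, the last with 0.47 (0.42 to 0.53), and Fabp3, Acads and Slc27a1 closed the list. Between the sham libraries the highest aged over young ratios were Cd36 at 0.53, Fabp3 at 0.48 (0.46 to 0.49) and Lpl at 0.46 (0.45 to 0.47), and after Etfdh the lowest were Slc25a20 at −0.48 (−0.58 to −0.39) and Eci1 at −0.46 (−0.52 to −0.41). For aged over young I/R the highest were Acadm at 0.31 (0.29 to 0.34), Fabp5 at 0.27 (0.16 to 0.38) and Cpt1a at 0.22 (0.099 to 0.35), of which the latter pair turned negative with scaling by gene-wise ratios, as did Acadm at −0.14. The lowest were Acads at −1.02 (−1.06 to −0.97), Fabp3 at −1.01 (−1.02 to −0.99) and Cpt2 at −0.98 (−1.04 to −0.92).

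The response to I/R was lower in aged than in young mice for 22 of the 34 genes, taken as the aged minus the young log2 ratio. The number was 34 with scaling by gene-wise ratios, 26 with reduced totals, 22 over barcodes with at least 200 genes, 29 with cardiomyocyte markers and 27 after centring by span. These numbers have no share of all genes beside them, since that share was counted on the CPM scale only. With gene-wise ratios the medians of all genes came to −0.020 in young and −0.0037 in aged mice, and centring sets the median of genes of like span to 0. More of all genes therefore lie below 0 on these scales. The aged minus young difference had no replicate and was not tested. Its median was −0.27 over the members and 0.61 over the 17514 genes with a count in every library, and all of the 34 lay below the latter. Against the median of genes with at least 4000 UMIs, 0.41, 28 lay below and 6 above. Neither background was matched to the members in abundance. Genes with at least 100000 UMIs, a class of 8 members, had median I/R over sham ratios of 0.20 in young and −0.17 in aged mice. For 30000 to 100000 UMIs (12 members) the medians were 0.057 and 0.042. For 10000 to 30000 (10 members) they were −0.23 and 0.15, and for 4000 to 10000 (4 members) −0.35 and 0.11. On the CPM scale 27.3% of the 17514 genes had a difference below 0, and 33.1% of the genes with at least 4000 UMIs. The lowest differences were those of Fabp3 at −1.48 (−1.50 to −1.46), Acads at −1.32 (−1.40 to −1.25) and Cd36 at −0.96 (−0.99 to −0.93), and the highest those of Eci1 at 0.60 (0.53 to 0.67), Cpt1a at 0.58 (0.40 to 0.76) and Etfdh at 0.55 (0.47 to 0.63). By step, the carriers had −1.31 (−1.32 to −1.29), the droplet lipases −0.88 (−0.95 to −0.81), uptake −0.51 (−0.52 to −0.50), the trifunctional protein −0.18 (−0.21 to −0.16), electron transfer −0.18 (−0.21 to −0.15), the carnitine shuttle −0.17 (−0.21 to −0.12) and the dehydrogenases −0.005 (−0.027 to 0.016), the latter within counting error of 0. For the dehydrogenases this held on the CPM scale only. Under each alternative scaling their aged sum had the lower ratio, with 0.73 in young and 0.13 in aged mice by gene-wise ratios. After centring by span Acadvl, Acadl, Acadm and Acads had differences of −0.11, −0.19, −0.068 and −1.14. Young and aged ratios had opposite signs for 20 of the 34, where 57.4% of all genes and 64.2% of those with at least 4000 UMIs did. Of the 20, Slc25a20, Acacb, Hadh, Eci1 and Etfdh were below 0 in young and above 0 in aged mice.

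The ratios moved with the length of the gene across the whole table, and the members shared in this. Among the 5069 genes with at least 4000 UMIs the median young I/R over sham ratio was 0.19 for genes that span less than 5 kb and −0.82 for those of 200 kb or more, and the aged ratio went the opposite way, from −0.26 to 0.30. The members span 4.06 to 107 kb. Spearman's rho between span and ratio was −0.27 over the 34 members and −0.42 over the 5069 genes in young mice, and 0.32 and 0.39 in aged mice, given as descriptions since all points share the same libraries. Which RNA species or preparation step lies behind this was not tested. Subtracting from each member the median of its class of span, a step added after the values had been seen, left 7 members at least 1.5-fold higher in young I/R over sham (Lpl, Cd36, Pnpla2, Lipe, Eci2, Decr1 and Etfa), where 10.7% of the 5069 genes were, and Fabp5 lower, where 15.0% were. In aged mice Eci1 was then higher (8.50% of genes) and Slc27a1, Fabp3 and Acads lower (6.41%). For Cd36, the longest member, the young ratio grew from 0.90 to 1.51 and the aged one went from −0.054 to −0.35, while for Fabp3 they came to 0.37 and −0.94. Comparing aged with young I/R, 13 members were lower after centring (8.19% of genes) and none higher (9.69%), and for aged over young sham Cd36 alone was higher (5.72%) and none lower (6.98%).

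**Figure D4:**
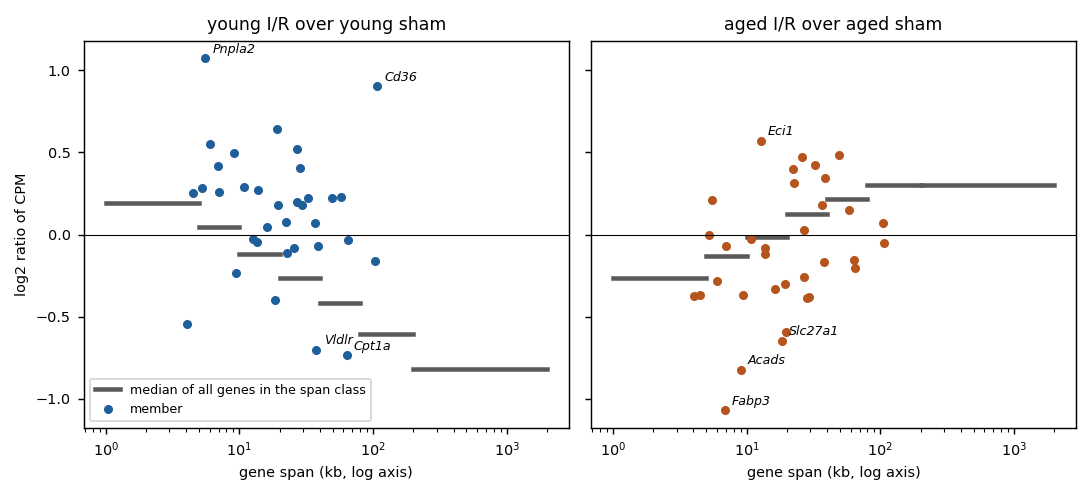
Log2 ratio of I/R over sham against gene span on a log axis for the 34 members (points) in young mice on the left and aged mice on the right, with grey bars for the median of all genes with at least 4000 UMIs in each class of span. The grey medians go down from 0.19 to −0.82 in young mice and up from −0.26 to 0.30 in aged mice, and Cd36 and Pnpla2 in young mice and Fabp3 and Acads in aged mice stand farthest from the bar of their class.

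Partners of the pathway that are not among the 34 were read from lists written with earlier results of these data known. Of 10 partners of lipoprotein lipase and regulators of lipolysis, 4 were at least 1.5-fold higher and 2 lower in young I/R over young sham, where 8.03% of all genes were higher and 47.5% lower. The shares of all genes given above for the other comparisons, 17.6% and 10.6% in aged I/R over sham, 11.3% and 21.4% for aged over young sham and 43.4% and 5.07% for aged over young I/R, stand beside the counts of the pathway lists as well. Angptl4, a secreted inhibitor of lipoprotein lipase, was highest in young I/R at 11.0, 61.4, 5.59 and 5.09 CPM, a log2 ratio of 2.48 in young and −0.13 in aged mice. Plin2, a coat protein of lipid droplets, had 34.5, 88.5, 34.4 and 38.3 CPM. The lowest were Lmf1, a maturation factor of the lipase, at −0.84 and G0s2, an inhibitor of Pnpla2, at −0.68. In aged I/R over sham 1 of the 10 was higher, Plin4 at 0.59, and none was lower, with Gpihbp1, the capillary anchor of the lipase, next at 0.33 and G0s2 and Angptl4 lowest. Comparing aged with young sham, 3 were lower, led by Angptl4 at −0.98 and Lmf1 at −0.69, and none was higher, with Lipa at 0.38 and Mgll at 0.23 at the top. Comparing aged with young I/R, 4 were lower, led by Angptl4 at −3.59 and Plin2 at −1.21, and Mgll was higher at 0.73, followed by Lipa at 0.33.

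Of 22 other genes of activation, transport and carnitine supply, 21 passed 20 UMIs and Slc27a6 had 7. In young I/R over sham 2 were at least 1.5-fold higher, the thioesterases Acot9 at 0.86 and Acot1 at 0.63, and 5 were lower (8.03% and 47.5% of all genes), among them the carnitine transporter Slc22a5 at −0.77. In aged I/R over sham 3 were higher, led by Acaca at 0.74 and Acot1 at 0.72, and Acot7 was lower at −0.72, followed by the acyl-CoA binding protein Dbi at −0.54. None of them passed 1.5-fold for aged over young sham, where Acot9 (0.44) and Acsl5 (0.32) were highest and Slc22a5 (−0.55) and Acot1 (−0.53) lowest. For aged over young I/R 3 were higher, led by Acsl6 at 0.95 and Abcd2 at 0.69, and 2 were lower, Dbi at −0.67 and Slc27a4 at −0.61.

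Peroxisomal fatty acid oxidation, a separate route for very long and branched chains, moved little as a sum, at 818, 892, 868 and 913 CPM. Its gene list is mainly of β-oxidation but also holds Phyh and Hacl1, enzymes of α-oxidation. Phyh made up 33.9%, 34.4%, 32.4% and 37.4% of the sum. Of its 11 genes none was 1.5-fold higher and 2 were lower in young I/R over sham (8.03% and 47.5% of all genes), Hacl1 at −0.97 and Acox3 at −0.76, with Ehhadh (0.42) and Scp2 (0.37) highest. None passed in aged I/R over sham, where Acox3 (0.37) and Phyh (0.28) were highest and Acaa1a (−0.53) and Pecr (−0.43) lowest. None passed for aged over young sham either, where Scp2 (0.34) and Pecr (0.13) were highest and Acox3 (−0.46) and Ehhadh (−0.39) lowest. In aged over young I/R Acox3 was higher at 0.68, before Hacl1 at 0.54, and Ehhadh (−0.54) and Acaa1a (−0.27) were lowest.

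Within libraries, barcodes that carried markers of a cell type held the members at nearly the level of barcodes without them. Barcodes with at least 2 UMIs of a marker list were compared with those that had none, and for cardiomyocytes the barcodes above the upper quartile of the share of marker UMIs with those below the lower quartile. No member was 1.5-fold higher in all 4 libraries for cardiomyocyte, endothelial, fibroblast, macrophage or mural markers. Fabp4 in endothelial-marker barcodes was at log2 ratios of 0.29 (0.20 to 0.37) in young sham, 0.042 (−0.023 to 0.11) in young I/R, 0.025 (−0.026 to 0.076) in aged sham and 0.12 (0.075 to 0.16) in aged I/R. In the barcodes richest in cardiomyocyte markers Fabp4 was lower in every library, with −0.19, −0.055, −0.081 and −0.15 and all intervals below 0. Lpl was lower by a little in barcodes with fibroblast markers, with −0.081, −0.056, −0.087 and −0.069, and with mural markers, again with intervals below 0 in each library. Marker genes were compared in the same way with the gene in question left out of the choice of barcodes. Their median log2 ratios were 0.29, 0.071, 0.14 and 0.10 for endothelial and 0.73, 0.33, 0.35 and 0.27 for fibroblast markers. Macrophage markers had 1.29, 0.27, 0.56 and 0.39, and mural markers 0.81, 0.30, 0.26 and 0.19. For cardiomyocyte markers the medians were only 0.081, 0.050, 0.020 and −0.049. Ttn was lower in the barcodes richest in the other cardiomyocyte markers, with −0.42, −0.35, −0.43 and −0.082. The Fabp4 ratios in those barcodes can therefore not be read as a difference between cell types. At least 1.5-fold higher were 0 of 18 cardiomyocyte markers in every library and 1, 0, 0 and 0 of 16 endothelial markers. For fibroblast markers 12, 4, 0 and 0 of 14 were, for macrophage 9, 4, 6 and 3 of 13 and for mural 6, 1, 1 and 0 of 9. Many markers thus missed the limit set for the members, so the absence of members past it cannot place them in a cell type. The share of cardiomyocyte-marker UMIs lay between 8.24% and 11.6% for the middle part of barcodes in young sham, from the lower to the upper quartile. Barcodes had a median of 244 to 675 UMIs. Adipocyte and neutrophil markers reached 2 UMIs in 15 to 75 and 8 to 303 barcodes per library, too few to compare the members.

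**Figure D5:**
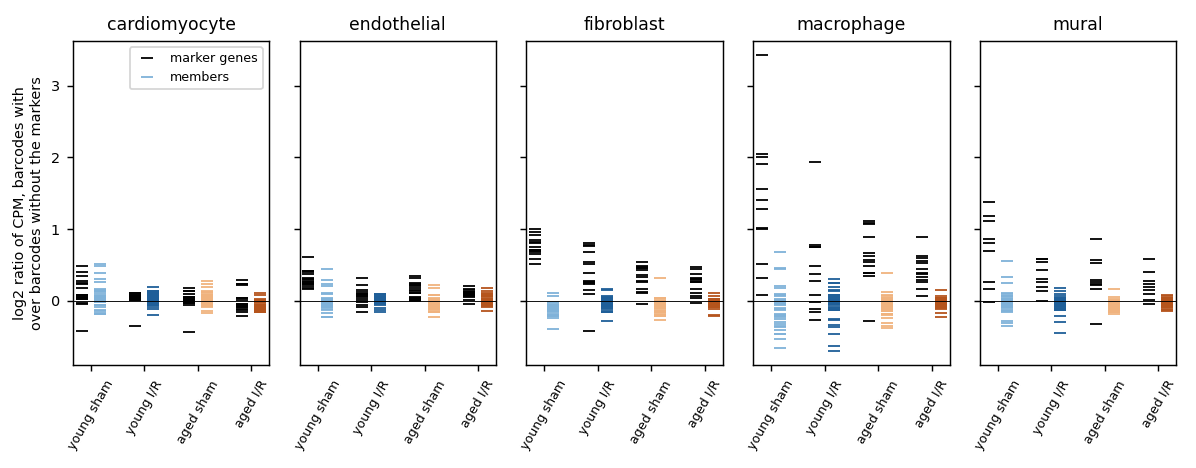
Log2 ratio of CPM between barcodes with and without the markers of a cell type (for cardiomyocytes, above the upper and below the lower quartile of marker share) within each library, with black ticks for the marker genes and coloured ticks for the 34 members. Members lie around 0 in every panel, from −0.69 to 0.68 at the widest in the macrophage panel. The marker genes themselves have their highest median, 1.29, for macrophages in young sham. It rests on 0 to 19 UMIs of each marker in the barcodes chosen.

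Promoter windows of 250 bases before to 50 bases after a start were found by symbol in RefSeq for 27 of the 34 members. The GC box (GGGCGG, either strand) was in 21 of their 32 windows, or 65.6%, against 35.7% of all 32851 windows, and CCAAT in 14, or 43.8%, against 37.4%. Both numbers describe letters in a window and no binding. The elements of the estrogen-related receptor (TCAAGGTCA), of PPAR (a repeat of AGGTCA with 1 base between the copies) and of the glucocorticoid receptor (GNACA and TGTNC with 3 bases between them) were in the windows of 0 of the 27 members and in 0.423%, 0.0396% and 0.475% of all windows. Both strands were searched, the first and the second of these elements share the letters AGGTCA, and the lack of a match says only that these letters are not in this window.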

How the data were processed

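Left ventricle of young and aged C57BL/6J mice was profiled on the 10x Chromium system with a 3′ kit, and the authors aligned reads to mm10 and called barcodes with Cell Ranger 6.0.2 (from the submitters' processing notes). The deposited values are whole counts of UMIs, unscaled, for each gene in each barcode. Whether strand was used in counting is not given in the sources used here. The authors' cell names and filters were not used, no doublet caller was run and no barcode was removed as a doublet.

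Counts were summed over all barcodes of each library, 25836175 to 66767829 UMIs, and scaled to CPM (a library total of 1000000). Log2 ratios carry 95% exact conditional intervals (Clopper-Pearson), which cover counting error only. The aged minus young differences carry 95% intervals from a normal approximation to Poisson error (delta method), which also cover counting error only. Genes needed 20 UMIs over the 4 libraries, and a ratio of 1.5 served to count genes. With 1 library per group no test was made. All 34 members are named, with full values for the 3 highest and 3 lowest ratios of each comparison, and of 3 further pathway lists the 2 highest and 2 lowest genes, except 1 gene that is not reported here. The members and lists were chosen with earlier results of these data known. Gene spans come from GENCODE vM21 (GRCm38) and promoters from RefSeq (GRCm38.p6). Scripts used Python 3.11.15, numpy 2.4.6, scipy 1.17.1, pandas 2.3.3 and matplotlib 3.10.9, and the ratio calculation was tested on simulated data. Alternatives were other scalings, barcodes with at least 200 genes, a minimum of 100 UMIs and no minimum. Centring by span, sums without Lpl and Fabp3, scaling by cardiomyocyte markers without Ttn and the check of the marker genes were added after the data had been seen.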

Additional observations from a re-analysis of the deposited data

Results flagged for a closer look

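For 12 genes the I/R over sham ratio was above 0 in young and below 0 in aged mice, with counting intervals clear of 0 at both ages under scaling by total UMIs and by gene-wise ratios. With 1 library per condition the difference between the ages was not tested. Of the carriers and uptake genes, the aged minus young log2 ratio was −1.48 for Fabp3, −0.96 for Cd36 and −0.62 for Fabp4. For the droplet lipase Lipe it was −0.94 and for the matrix transferase Cpt2 −0.77. Among the enzymes of β-oxidation it was −1.32 for Acads, −0.56 for Hadhb, −0.46 for Acaa2, −0.79 for Decr1 and −0.33 for Ech1. For Etfb it was −0.35 and for the thioesterase Acot2 −0.83. Among all genes with at least 4000 UMIs, 18.4% had a young ratio above 0 and an aged ratio below 0, without regard to intervals. That share was not matched to the 12 genes in abundance. The median ratios of all genes with at least 100000 UMIs were 0.20 in young and −0.17 in aged mice. Some members went the other way on the CPM scale, with intervals clear of 0 at both ages. Slc25a20 had −0.11 in young and 0.31 in aged mice, and Acacb −0.16 and 0.072. Hadh had −0.069 and 0.34, and Etfdh −0.079 and 0.47. Scaling by gene-wise ratios adds 0.51 to young ratios and −0.090 to aged ones. The young ratios of these genes were then above 0. The demand for both scalings thus favours genes above 0 in young mice.

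After subtraction of the median of genes of like span, 11 of the 12 kept opposite signs. The exception was Ech1, whose aged value came to 0.063. Fabp3 then had 0.37 for young and −0.94 for aged mice. For Acads the values were 0.45 and −0.69. Others kept their signs by little, with 0.057 and −0.11 for Fabp4 and an aged value of −0.068 for Etfb. The share of all genes with opposite signs after this subtraction was not counted.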

How the results depend on the processing

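No paired analysis was possible because each group has 1 library. Scaling by gene-wise ratios, by totals without Gm42418, Malat1 and mitochondrial genes, over barcodes with at least 200 genes and by cardiomyocyte markers gave, in that order, log2 ratios of the summed members of 0.83, 0.46, 0.41 and 0.51 for young I/R over sham, −0.25, −0.25, −0.14 and −0.39 for aged I/R over sham, 0.34, 0.26, 0.27 and 0.30 for aged over young sham and −0.74, −0.45, −0.29 and −0.60 for aged over young I/R. The summed response, aged minus young, was −1.07, −0.71, −0.55 and −0.90 against −0.47. In that same order, 20, 6, 6 and 8 members were at least 1.5-fold higher in young I/R over sham and 0, 1, 3 and 0 lower, and 3, 1, 1 and 2 were higher for aged over young sham. Lower for aged over young sham were 0 with gene-wise ratios and 2 with 200 genes, and lower for aged I/R over sham were 9 with cardiomyocyte markers. The shift behind the latter number rests on Ttn. For aged over young I/R, 19, 11 and 16 were lower with gene-wise ratios, reduced totals and cardiomyocyte markers. Minimums of 100 UMIs or none do not touch the members, all of which pass both.

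Centring by span gave 7 higher and 1 lower in young I/R over sham, 1 higher in aged I/R over sham, 1 higher and 0 lower for aged over young sham and 13 lower for aged over young I/R. Without Lpl and Fabp3 the sums were 0.21, −0.023, −0.0029 and −0.24. On the CPM scale, the only one used for these sums, this turns the sign for aged over young sham. It also leaves little of the aged I/R over sham value on that scale. With cardiomyocyte markers without Ttn the sums were 0.31, −0.15, 0.063 and −0.40. In marker-bearing barcodes, 1 in place of 2 UMIs gave the same counts of 0 members higher. Which of the scalings is nearest to the tissue was not tested, and the counting intervals, narrow at this depth, say nothing of the spread between mice.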
